A study of Mus musculus with 6 samples.

Results

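Gpam and 9 further genes of fatty acid and glycerolipid synthesis were followed across 3 kinds of mouse bone marrow. The genes were taken from a list written for this work (Gpam, Fasn, Acaca, Acly, Scd1, Scd2, Dgat1, Dgat2, Lpin1 and Srebf1), and their probes were found through the sequence record or gene number that the scanner gives for each spot. Of the 10 genes, 9 had a named probe, with 12 probes in all out of 19801 on the array. Acaca, which encodes acetyl-CoA carboxylase 1, had 0 named probes and was not analysed here.

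RNA of pooled marrow cells was hybridized to 6 one-colour CodeLink 20K bioarrays, 2 per group, all from C57BL/6J female mice of 6 to 10 weeks. The BM group was marrow of mice that received neither radiation nor cells, with 2 mice per pool. The HSC group was marrow of mice given 9.5 Gy and then whole bone marrow cells, which include hematopoietic stem cells, with 2 mice per pool. The MSC group was marrow of mice given 9.5 Gy and then bulk mouse mesenchymal stromal cells (mMSCs) expanded in culture, with 3 mice per pool. The HSC and MSC groups thus share the irradiation, and the BM group lacks both irradiation and transplant. The methods of the study state that recipients carried the CD45.1 allele, that donors were male and that marrow was taken at day 21, whereas the design text deposited with the arrays gives 7 months, so the time of sampling is not settled.

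Fatty acids are built from acetyl-CoA, which the cell makes from citrate through ATP citrate lyase (Acly), and which acetyl-CoA carboxylase and fatty acid synthase (Fasn) turn into palmitate. The stearoyl-CoA desaturases Scd1 and Scd2 introduce a double bond. Gpam, the mitochondrial glycerol-3-phosphate acyltransferase, attaches the first fatty acid to glycerol-3-phosphate, the lipin Lpin1 removes the phosphate further along, and Dgat1 and Dgat2 add the last fatty acid to give triacylglycerol. The transcription factor SREBP-1, encoded by Srebf1, drives many of these genes in liver and fat. In marrow, triacylglycerol is stored mainly in adipocytes, while dividing blood cells need the same early steps for their membranes.

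Over the 6 arrays 11072 to 12510 probes were above background by the scanner's mark, and 209 to 558 were left out as defective. The median ratio of spot to local background was 2.10 to 2.69. Markers of marrow were present: 9 neutrophil probes with a value on every array had a summed intensity of 221000 to 283000 per array, and 8 such erythroid probes of 69900 to 97300. Levels below are log2 intensities after background correction and quantile normalization, and a difference of 1 is 2-fold. Levels of different probes are not comparable, so only differences between groups are set side by side. Since each array is a pool and each group has 2 arrays, the p-values measure the spread between pools. In whole marrow, fewer cells of a type and less RNA per cell cannot be told apart.

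Gpam was lowest in MSC marrow and highest in HSC marrow. Its gene lies on mouse chromosome 19 (chr19:55067635-55127319, build GRCm38.p6), and its single probe was above background on all 6 arrays. The level was 9.56 and 10.25 on the BM arrays, 10.87 and 11.11 on the HSC arrays, and 8.76 and 8.60 on the MSC arrays. Both MSC pools lay below both BM pools, and both BM pools lay below both HSC pools. The spread between pools was widest in BM (SD 0.49, n = 2) and narrower in HSC (SD 0.17, n = 2) and MSC (SD 0.11, n = 2).

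**Figure D1:**
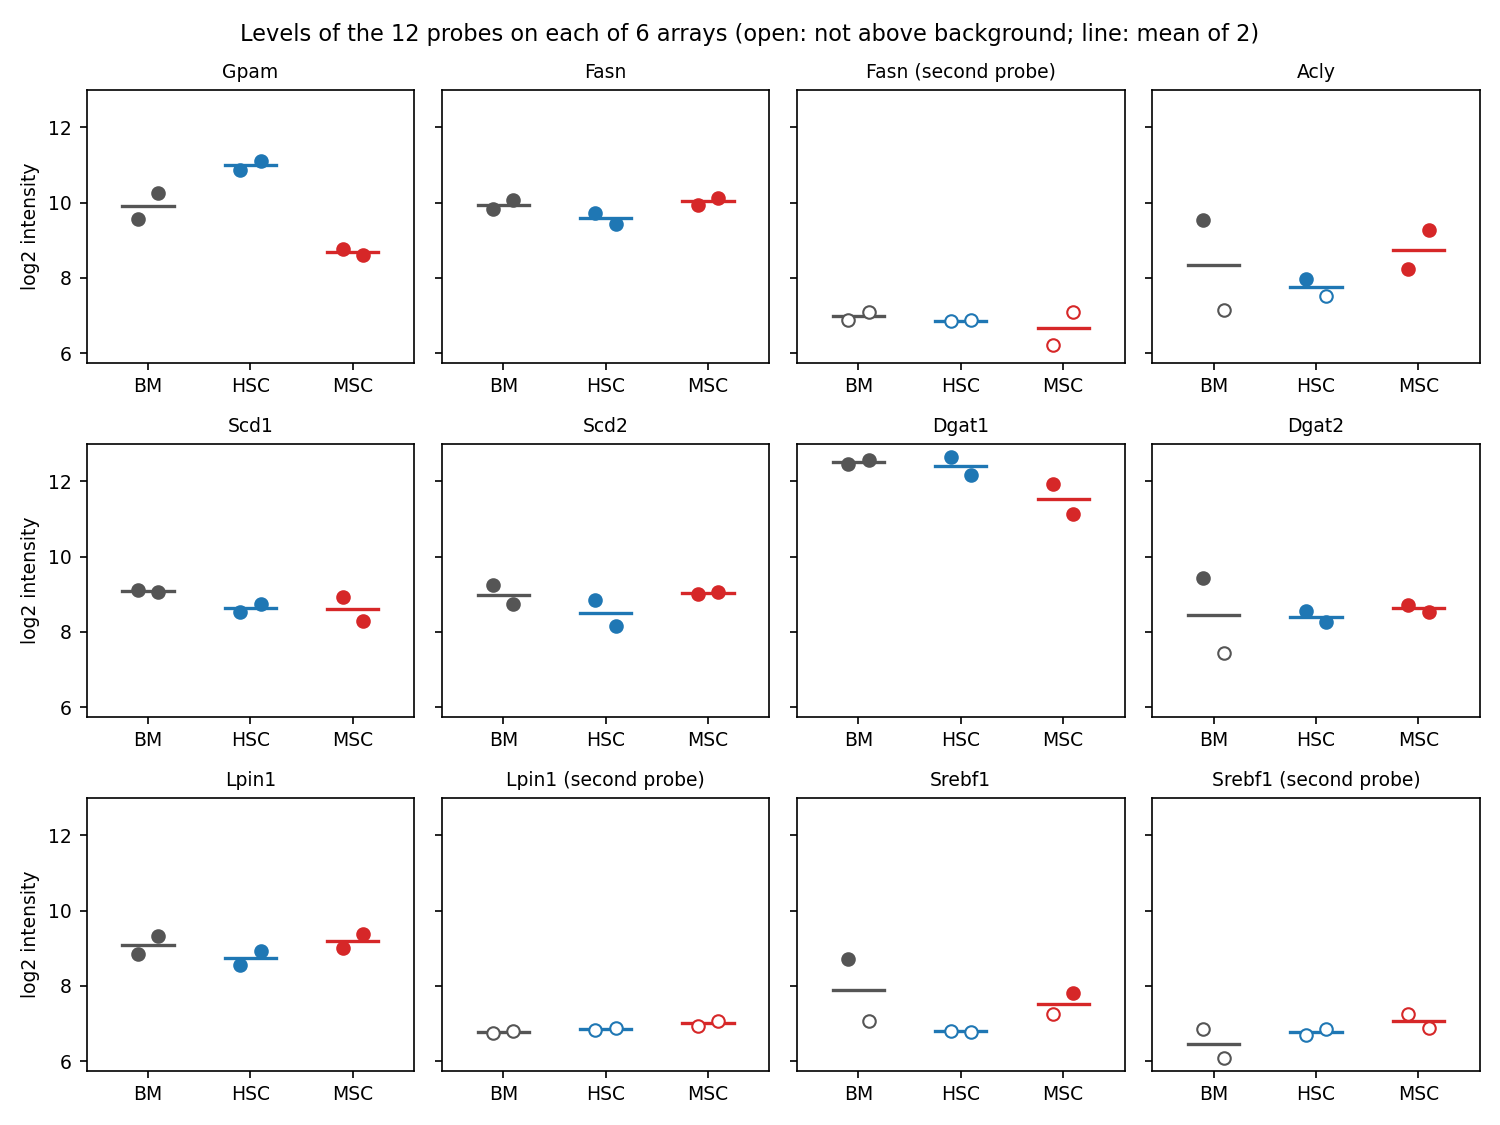
Log2 intensity (vertical axis, the same scale in every panel) of the 12 probes on the 6 arrays, grouped as BM, HSC and MSC, with 1 point per array and a line at the mean of each pair. Open points are not above background. The Gpam groups are fully separated, with MSC at 8.60 and 8.76 below BM at 9.56 and 10.25 and HSC at 10.87 and 11.11.

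Against HSC marrow, the Gpam level in MSC marrow fell by 2.31 on the log2 scale (SE 0.28, 95% interval -2.97 to -1.66, limma adjusted p = 0.0276), a 4.96-fold difference. This was the 32nd lowest change among 11660 probes tested. The study picked Gpam out on these same MSC and HSC arrays, so the value describes the choice and is not independent evidence of its direction. The study also reports quantitative PCR of selected genes in separate cohorts of recipients. It lists primers for Gpam and names Gpam among the genes lower with mMSCs. Those measurements are not part of the arrays used here. For those cohorts the methods name both bulk mMSCs and a single clone as the cells given, whereas the arrays used bulk mMSCs. With 1 MSC or HSC array left out the adjusted p was 0.0667 to 0.138, while the change stayed between -2.43 and -2.19; the lone array of a group is then assumed to vary like the others, and the SE was 0.36 to 0.37 in place of 0.28. Gpam was called in 16 of the 25 alternatives run, and among the 9 others were background subtraction (adjusted p = 0.0543), the deposited values (adjusted p = 0.0516), no filter on dim probes (adjusted p = 0.0598) and the study's own test without shared variance, adjusted in the same way (adjusted p = 0.415). The study describes no such adjustment. At its own limits, in a run not counted among the 25, its test called Gpam lower and no other member.

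Against BM marrow, the Gpam difference of MSC marrow was -1.23 (SE 0.28, 95% interval -1.88 to -0.57, adjusted p = 0.183), which did not pass the threshold of 0.05. In HSC against BM marrow the difference was 1.09 (SE 0.27, 95% interval 0.44 to 1.73, adjusted p = 0.654), which did not pass either. The 3 comparisons share arrays, so these values are not independent of each other.

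Among the 8 member genes tested in MSC against HSC marrow, Gpam was the single one called, and it was called lower. In this comparison 49 of 11660 probes were called lower (0.42%) and 9 higher (0.0772%), 0.497% in all. The 7 other members had differences between -0.88 and 1.00, and for 6 of them the 95% interval held 0. None of the 7 intervals overlapped that of Gpam. The nearest was that of Dgat1, whose lower bound of -1.62 lay close to the upper bound of Gpam at -1.66. The difference between probes was not itself tested. The study had chosen Gpam on these same arrays as lower in MSC marrow. Its call and its distance from the other members thus largely follow from that choice. In 5 of the 7 intervals a value of -1 or lower was not included. The interval of Dgat1, -1.62 to -0.13, did include it and lay wholly below 0. That of Dgat2, -1.14 to 1.58, was wide and included both -1 and 0.

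**Figure D2:**
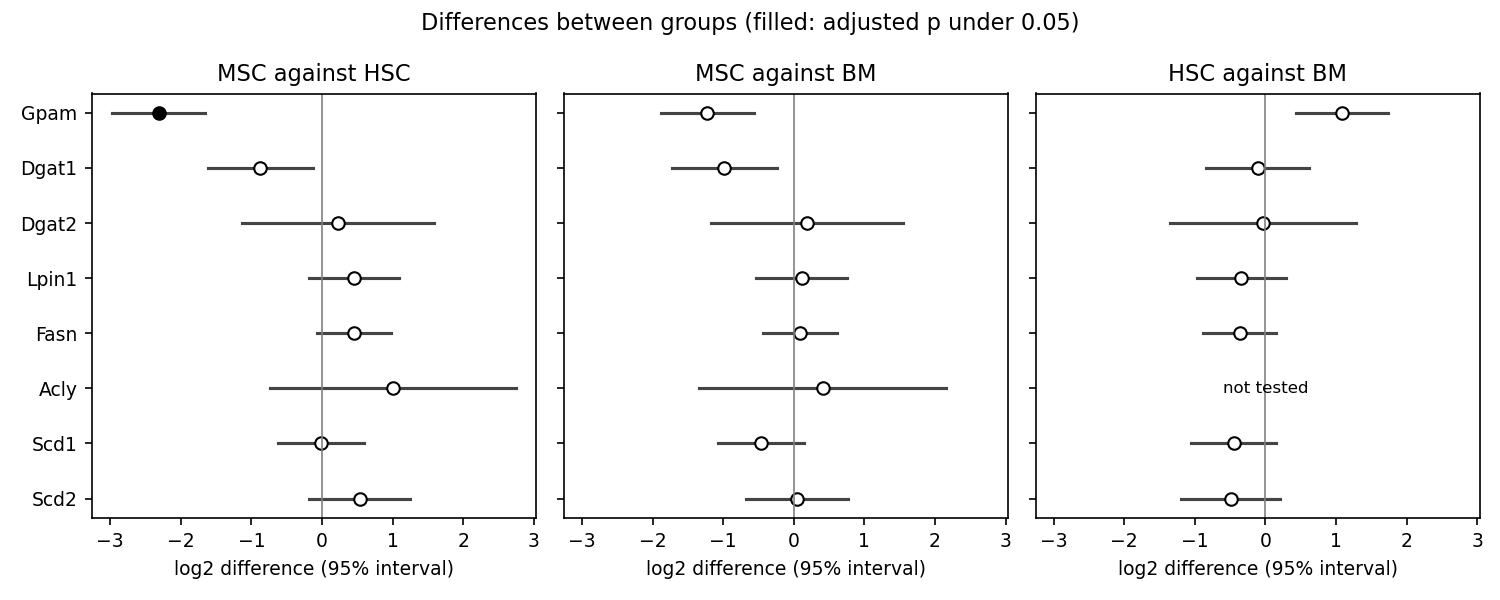
Log2 difference (horizontal axis) of each tested member in MSC against HSC, MSC against BM and HSC against BM, with 95% intervals from limma. Filled points passed an adjusted p of 0.05. Gpam in MSC against HSC, at -2.31, is the single filled point, and Dgat1 lies below 0 in both comparisons with MSC at -0.88 and -0.99.

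Dgat1, which catalyses the last step of triacylglycerol synthesis, came closest to the direction of Gpam. Its level was 12.47 and 12.57 on the BM arrays, 12.65 and 12.17 on the HSC arrays, and 11.93 and 11.13 on the MSC arrays. Both MSC pools lay below all 4 others. The difference was -0.88 from HSC (SE 0.31, adjusted p = 0.237) and -0.99 from BM (SE 0.32, adjusted p = 0.300), and neither passed the test. Dgat2, a second and unrelated enzyme of that step, had 8.55 and 8.26 in HSC and 8.71 and 8.54 in MSC marrow. Its BM arrays gave 9.43 and 7.45, the latter not above background, so that they spanned the values of both other groups. The Dgat2 difference between MSC and HSC was 0.22, with a 95% interval from -1.14 to 1.58.

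The enzymes that make and desaturate fatty acids had no called change. Fasn was 9.83 and 10.06 in BM, 9.72 and 9.44 in HSC, and 9.94 and 10.13 in MSC marrow. Both MSC pools were above both HSC pools, by 0.45 (SE 0.22, 95% interval -0.07 to 0.97, adjusted p = 0.347), which is opposite in sign to Gpam. Scd2 had 8.85 and 8.16 in HSC and 9.01 and 9.07 in MSC marrow, a difference of 0.54 (SE 0.30, adjusted p = 0.409). Scd1 gave 9.12 and 9.05 in BM, 8.54 and 8.73 in HSC, and 8.92 and 8.30 in MSC marrow. The MSC and HSC pools of Scd1 overlapped, and their difference was -0.02 (95% interval -0.63 to 0.59).

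Acly was the least precise of the tested members. Its level was 9.53 and 7.15 in BM, 7.97 and 7.53 in HSC, and 8.23 and 9.27 in MSC marrow. It was above background on 4 of the 6 arrays, and the BM pools lay at both ends of the range. The difference of 1.00 between MSC and HSC had a 95% interval from -0.74 to 2.75. Acly was not tested in HSC against BM, since neither group had it above background on its full pair of arrays.

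Lpin1 was 8.85 and 9.33 in BM, 8.57 and 8.93 in HSC, and 9.01 and 9.39 in MSC marrow. Both MSC pools were above both HSC pools, by 0.45 (SE 0.27, adjusted p = 0.430). Srebf1 had a pair of probes, and neither was tested. The brighter one was above background on BM pool 1 at 8.71 and MSC pool 2 at 7.81, with 7.07, 6.80, 6.79 and 7.25 on BM 2, HSC 1, HSC 2 and MSC 1. The other Srebf1 probe and the second probes of Fasn and Lpin1 were above background on 0 arrays, so no second probe bears on the values of either enzyme.

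Groups that do not overlap are common with 2 arrays each. In MSC against HSC, MSC pools lay wholly below in 2 members and wholly above in 4, while of all probes 27.5% were wholly below and 24.0% wholly above, 51.4% in all. Of the 8 members 5 had a difference above 0, with a median of 0.34, while 50.4% of all tested probes were above 0 and their median was 0.00. Acly, among these 5, was tested only because both MSC arrays had it above background. In MSC against BM, 0 of 8 members were called (0.447% of all probes were). In that comparison 3 members were wholly lower and 0 wholly higher, while of all probes 21.9% were lower and 20.5% higher, 42.3% in all. In HSC against BM, 0 of 7 members were called (0.0359% of all probes were). Here 2 members were wholly lower and 1, Gpam, wholly higher, while of all probes 15.3% were lower and 21.4% higher, 36.6% in all. At an unadjusted p under 0.05 the members numbered 2 in MSC against HSC and 2 in MSC against BM, Gpam and Dgat1 in both, and 1 in HSC against BM, Gpam, where all probes gave 17.0%, 12.4% and 5.44%.

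The wider pathway held 114 other genes in 6 lists, of which 101 had a probe and 79 were tested in MSC against HSC. None was called in either direction in that comparison, with 3 lower and 5 higher at an unadjusted p under 0.05. Of all probes 0.497% were called and 17.0% had an unadjusted p under 0.05. Thus 0 calls, here and in each list below, lie near the share of all probes. Their differences ran from -1.18 to 2.10 with a median of 0.23, and 0 of the 79 were at or below -2. In MSC against BM 0 of 81 were called, with 2 lower and 5 higher at an unadjusted p under 0.05. Of all probes 0.447% were called there and 12.4% had such a p. In HSC against BM 0 of 70 were called, with 0 lower and 4 higher, where all probes gave 0.0359% and 5.44%.

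In glycerolipid synthesis, 0 of 11 tested genes were called in MSC against HSC, and their median difference was 0.23. Gpat4, an acyltransferase of the endoplasmic reticulum that catalyses the same step as Gpam, was 8.23 and 8.29 in HSC marrow and 7.75 on the single MSC array with a value, a difference of -0.51 (SE 0.26, adjusted p = 0.376). Gpat3, a further enzyme of that step, was above background on 3 arrays and not tested, and Gpat2 had 0 named probes. Agpat2, which adds the second fatty acid, had the largest rise of the list at 1.21 (SE 0.67, adjusted p = 0.411), with a value missing on HSC pool 1.

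In fatty acid synthesis and elongation 0 of 14 tested genes were called in MSC against HSC, with a median of -0.03. Elovl6, which lengthens palmitate, was 10.11 and 10.40 in BM, 10.77 and 10.90 in HSC, and 9.96 and 9.84 in MSC marrow. Its groups lay in the same order as those of Gpam without overlap, and the difference between MSC and HSC was -0.93 (SE 0.21, 95% interval -1.43 to -0.44, adjusted p = 0.116). Acacb, the mitochondrial acetyl-CoA carboxylase, had the largest rise at 2.10 (SE 1.08, adjusted p = 0.385). This value rested on MSC pool 2 at 10.52, since MSC pool 1 was 7.73 and the single HSC value 7.03.

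Among regulators 0 of 9 tested genes were called in MSC against HSC. Insig2, which holds SREBP precursors in the endoplasmic reticulum, was 10.89 and 11.04 in HSC marrow and 9.79 on the single MSC array with a value, a difference of -1.18 (SE 0.30, adjusted p = 0.155). Srebf2, whose product SREBP-2 drives cholesterol synthesis, differed by 1.02 (SE 0.62, adjusted p = 0.441). Nr1h3, the oxysterol receptor LXR alpha, was 1.23 above BM in MSC marrow (SE 0.34, adjusted p = 0.258). In sterol synthesis 0 of 17 were called, with the lowest difference at Idi1 (-0.51), and in phospholipid synthesis 0 of 11, from Pgs1 at -0.36 to Ptdss2 at 0.98.

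Genes of lipolysis and fatty acid oxidation lay mostly above 0 in MSC marrow, though 0 of 17 were called. In MSC against HSC 14 of 17 had a difference above 0, with a median of 0.44, and in MSC against BM 14 of 17, with a median of 0.38, whereas 50.4% and 51.0% of all tested probes were above 0. Mgll, Cpt1a, Slc25a20, Acads and Ppara passed the filter only through the MSC arrays, and all of them were above 0 in both comparisons. Their part of the lean thus follows from the filter. In HSC against BM, where they were not tested, 6 of 12 were above 0. Some marker lists leaned the same way in MSC against HSC. Above 0 were 8 of 9 erythroid markers (median 0.49), 8 of 9 of monocytes and macrophages (median 0.20) and 8 of 10 of adipocytes (median 0.45). Stroma and osteoblasts had 5 of 9 above 0 (median 0.24), neutrophils 4 of 10 (median -0.07) and early B cells 0 of 13 (median -2.12). In MSC against BM it was 9 of 10 erythroid, 4 of 9 monocyte and macrophage and 9 of 10 adipocyte markers. There stroma and osteoblasts had 8 of 9, neutrophils 2 of 10 and early B cells 0 of 13. In the lipolysis and oxidation list the largest rise over HSC was that of Acaa2, a thiolase of mitochondrial oxidation, at 1.26, with 1 MSC value missing. Hadhb, of the trifunctional protein of mitochondrial oxidation, had the lowest difference at -0.26 (SE 0.21, adjusted p = 0.564).

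**Figure D3:**
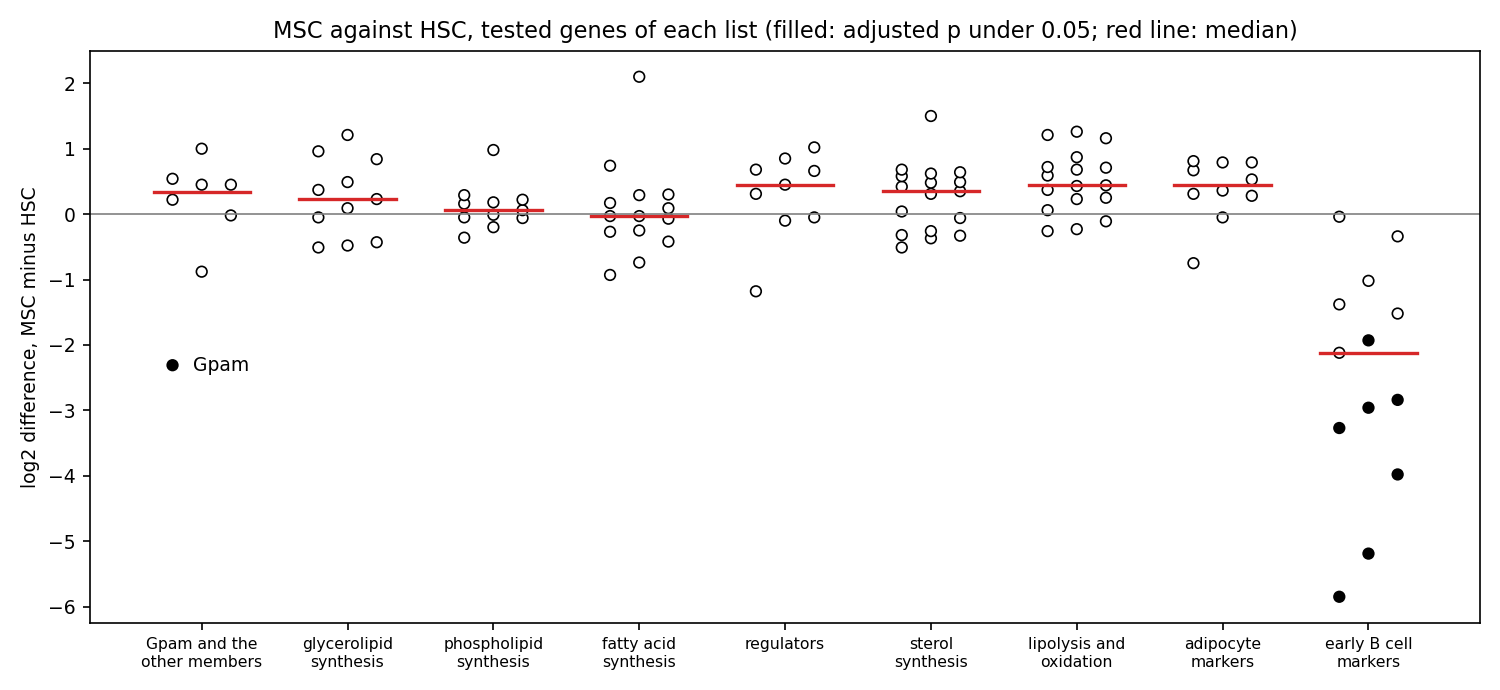
Log2 difference of MSC minus HSC (vertical axis) for each tested gene of 9 lists, with the median of each list as a red line and genes past an adjusted p of 0.05 filled. Gpam at -2.31 is the single filled gene of the 7 lipid lists, and 7 of 13 early B cell markers are filled.

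Markers of other cell types moved beside Gpam. Of 13 tested markers of early B cells 13 had a difference below 0 in MSC against HSC, with a median of -2.12, and 7 of them were called lower, where 0.42% of all probes were. In MSC against BM 13 were below 0, with a median of -1.14, and 5 were called lower, where 0.447% of all probes were called in either direction. Vpreb1, a part of the surrogate light chain of B cell precursors, had the largest difference from HSC at -5.85 (SE 0.26, adjusted p = 0.00379). Over the 11 markers with a value on every array, the summed intensity was 24900 and 22800 in BM, 30000 and 31400 in HSC, and 5760 and 7920 in MSC marrow. The groups thus stood in the same order as for Gpam. Within groups the order of these sums matched that of Gpam in HSC, where pool 2 was higher in both. By the mean log2 of the same 11 markers HSC pool 1 was the higher (10.84 against 10.79), so that match depended on the summary used. In BM and MSC the order did not match. BM pool 2 had more Gpam than BM pool 1 and less of the B cell markers, and MSC pool 2 had less Gpam than MSC pool 1 and more of them. The part of B cell content in the Gpam difference was not tested.

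Of 10 tested adipocyte markers 0 were called in MSC against HSC or in MSC against BM, where 0.497% and 0.447% of all probes were. Above 0 were 8 of 10 in MSC against HSC and 9 of 10 in MSC against BM (median 0.54). Both MSC pools lay above both BM pools for Cfd (2.23, limma adjusted p = 0.081), Fabp4 (1.45, adjusted p = 0.372) and Lpl (1.44, adjusted p = 0.303). Cd36 was below 0 in that comparison (-0.77, adjusted p = 0.634). Cfd was also 1.95 above BM in HSC marrow (adjusted p = 0.368). Over the 9 with a value on every array the summed intensity was 18800 and 12500 in BM, 21200 and 26000 in HSC, and 18600 and 53300 in MSC marrow. MSC pool 2 stood above the 5 other arrays and MSC pool 1 within their range, while Gpam was low on both. Adipoq, the adipocyte hormone adiponectin, was above background on all 6 arrays, at 12.61 and 13.14 in HSC and 12.09 and 13.55 in MSC marrow, and Lep and Lipe were above background on 0 arrays. Of 9 tested markers of stroma and osteoblasts 5 had a difference above 0 and 4 below 0 in MSC against HSC. The matrix Gla protein gene Mgp was the 1 called (2.31, adjusted p = 0.0414), where 0.0772% of all probes were called higher. The summed intensity of the 12 probes of this list was 3920 to 5940 over BM and HSC and 8820 and 17600 in MSC marrow. The stroma sum was higher on both MSC arrays than on the 4 others, and the part of either cell type in the Gpam difference was not tested.

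The genes most like Gpam were sought among 7241 named probes above background on all 6 arrays, by the root mean square difference of log2 values centred on each gene's own mean. The 5 nearest were Col5a3 (0.175), Rsph3a (0.213), Tifa (0.228), Fbxl12 (0.265) and Ttpal (0.291). Col5a3, a collagen V chain, was 9.02 and 9.33 in BM, 10.07 and 10.37 in HSC, and 8.04 and 8.21 in MSC marrow. Since the 5 were picked for their likeness to Gpam on these arrays, the order of their groups follows from the choice, and their values are a description. Of the 5, Col5a3 (-2.09, adjusted p = 0.0229) and Fbxl12 (-1.90, adjusted p = 0.0267) had an adjusted p under 0.05 in MSC against HSC, while Rsph3a (-1.92, adjusted p = 0.0649), Tifa (-2.43, adjusted p = 0.0519) and Ttpal (-1.86, adjusted p = 0.0581) did not. Among early B cell markers eligible here, named after their values were seen, Rag2 ranked 9th at 0.319, Ebf1 53rd, Rag1 709th, Il7r 828th, Cd79b 1962nd and Cd79a 4125th. The nearest member was Dgat1, which ranked 563rd at 0.708. Scd1 ranked 3796th, Lpin1 5740th, Fasn 5820th and Scd2 6384th.

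**Figure D4:**
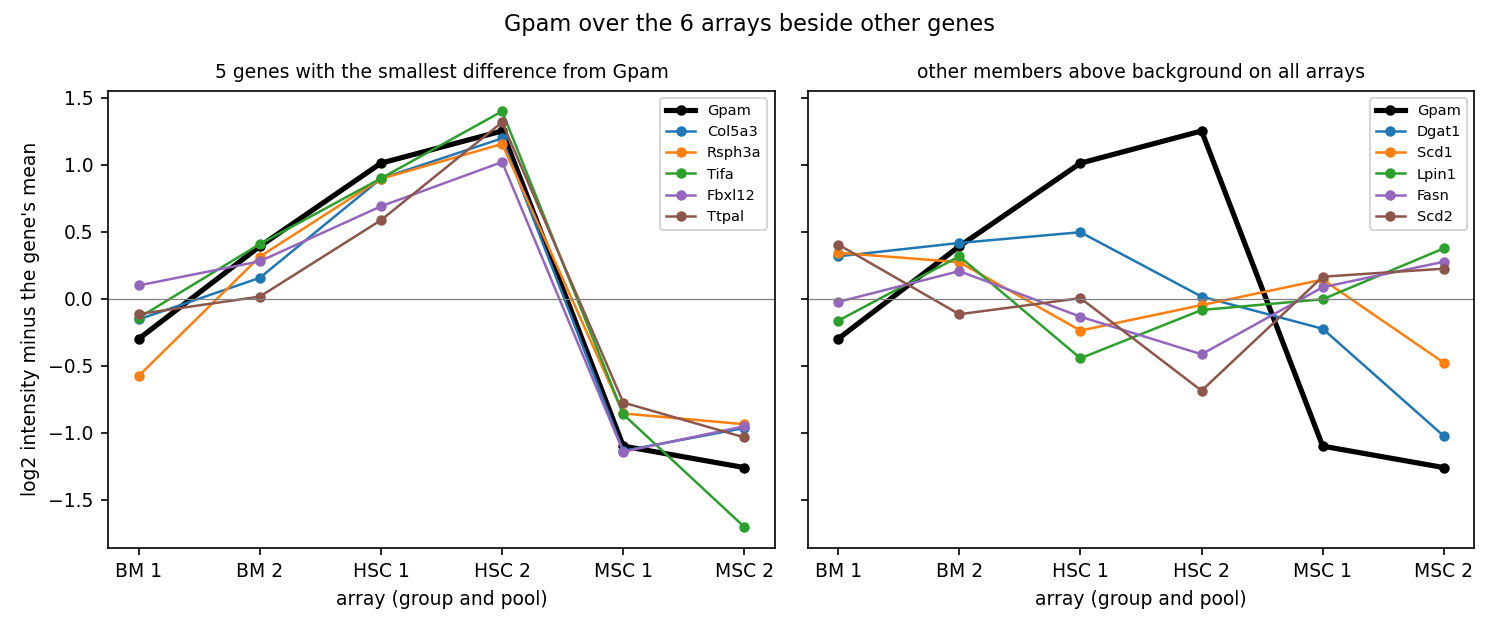
Log2 intensity minus each gene's own mean (vertical axis) on the 6 arrays (horizontal axis) for Gpam, with its 5 nearest genes on the left and the 5 other members above background on all arrays on the right. The 5 nearest genes are high on the HSC arrays and low on the MSC arrays, as their choice by likeness to Gpam requires, with root mean square differences of 0.175 to 0.291, and of the members Dgat1 is nearest at 0.708.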

How the data were processed

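The authors deposited, per array, scanner files with the linear intensity of each spot (mean), its local background (median) and a quality mark, made with CodeLink Expression Analysis 4.0.0.23520 per the labels, and a value table of log2 intensity. Within each array that table ranks probes as spot minus background does once its sign is removed (rank correlation 1.00), and all medians are 7.87, so signs were dropped before normalization. The label protocol calls the arrays human, the methods mouse, and the probes carry mouse records.

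Intensities were corrected with normexp (offset 50), put on the log2 scale, and quantile normalized without control spots. Spots marked M, C or X were then left out. limma 3.58.1 (R 4.3.3) fitted 1 mean per group over all 6 arrays (3 groups, two-sided, Benjamini-Hochberg over tested probes, threshold 0.05). A probe was tested when at least 1 of the groups compared had it above background on its full pair of arrays. Of 19801 probes 14632 were named, 10709 by sequence record, 3645 by gene number and 278 by the platform annotation, for 13831 genes; coordinates are RefSeq's. Array number limits precision. Python 3.11.15, pandas 2.3.3 and matplotlib 3.10.9 served for tables and figures. The fit was tested on simulated data. There a true log2 change of 2 was called in 38 of 50 probes and of -2 in 31 of 50. Changes of 1 and -1 were called in 2 of 50 and 3 of 50. An uncalled difference of that size is thus not evidence of no change.

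The members and lists were chosen with earlier results of these data known. Several orders of leaving out marked and control spots and several ways of moderating the variance were run on these arrays, with their counts and the p of Gpam in view, before the order above was kept; all are given with the alternatives. Genes named from other lists were the largest rise and fall per comparison and any called gene, plus the 5 most like Gpam; Gpat2, Gpat3, Rag2 and the markers named fall outside that rule and were chosen after values were seen. Of the genes it names, 1 is not reported here. The study's own t-test was run as an alternative at p of 0.01 and a ratio of 2.5. No sequence is shown.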

Additional observations from a re-analysis of the deposited data

How the results depend on the processing

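The Gpam difference between MSC and HSC kept its direction in 25 of 25 alternatives, from -2.53 to -2.19, and was called in 16. It was not called with background-subtracted intensities floored at 8 (-2.53, adjusted p = 0.0543), the deposited values (-2.52, adjusted p = 0.0516), no filter on dim probes (-2.31, adjusted p = 0.0598) or the study's t-test after Benjamini-Hochberg adjustment (-2.31, adjusted p = 0.415), nor without HSC 1, HSC 2, MSC 1 or MSC 2 (-2.43 to -2.19); in each of these 0 members were called in place of 1. At the study's own limits, without adjustment, its t-test called 1 member in MSC against HSC, Gpam, as lower. Gpam was called in 0 of 25 alternatives in MSC against BM (-1.57 to -0.88) and in HSC against BM (0.74 to 1.43). The other tested members, and the genes with the largest rise or fall of each lipid list in the comparison where they had it, were called in 0 alternatives; other genes and comparisons were not rerun here. The cause of these shifts was not tested.

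The choice of processing order was made after seeing results. Over the 15 combinations of 5 orders and 3 ways of moderating the variance, Gpam was called in MSC against HSC in 15, with adjusted p from 0.0268 to 0.039, and the probes called numbered 36 to 58 in MSC against HSC, 36 to 53 in MSC against BM and 0 to 4 in HSC against BM; the kept order lies at the upper end of all 3 ranges. With 1 moderation over the 3 comparisons, on tested or on all probes, HSC against BM gave 0 calls in place of 4. Leaving out spots marked I as well gave 59, 53 and 4 calls.

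Counts over all probes moved more. In MSC against HSC, 58 calls became 27 with background subtraction, 24 with the deposited values, 19 with no filter, 34 by the study's t-test at its own limits and 0 after adjustment. Without 1 array they ran from 28 (without MSC 2) to 90 (without MSC 1). In MSC against BM, 53 became 21, 24, 23, 30 and 0 under those settings in turn, 28 for probes above background on all 6 arrays and 25 with the 4 arrays compared, and 25 (without HSC 1 or HSC 2) to 109 (without MSC 1) without 1 array. In HSC against BM, 4 became 0 with background subtraction, an offset of 16 or the deposited values, 7 with median scaling, 1 with the 4 arrays compared, 11 by the study's t-test and 0 after adjustment, and 1 to 71 (without BM 2) without 1 array.

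Pools share only a number. The correlation of pool 1 minus pool 2 over 8848 probes was 0.568 for BM with HSC, -0.278 for BM with MSC and -0.199 for HSC with MSC. With the pool number as a replicate block 0 members were called, Gpam was at -2.31 (adjusted p = 0.0894) and 15, 21 and 0 probes were called in the 3 comparisons. With the MSC numbers crossed, an alternative added after seeing the data, 279, 110 and 6 probes were called. Slide and scan date could not be used as a block, since each array is its own slide and no date is given. Signal over background limits Acly, Dgat2 and Srebf1 most.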
